A study of Mus musculus with 12 samples.

Results

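The replication-dependent histone genes encode the bulk of the histones that package newly copied DNA. They were taken as the protein-coding rows of the expression table whose symbol begins with H2ac, H2bc, H2bu, H3c or H4c and a number, or is H1f1 to H1f5. The rule gave 64 of 55322 genes, made up of 5 H1, 17 H2A, 18 H2B, 12 H3 and 12 H4 genes. All but 11 lie on chromosome 13, 10 lie on chromosome 3, and H2bu2 lies on chromosome 11. They were measured by RNA-seq in the type 2 conventional dendritic cell (cDC2), which presents antigen to helper T cells, taken from the spleen of mice aged 7 to 8 weeks on day 4 after 5 mg/kg of intraperitoneal LPS, a bacterial membrane component. Every group had received LPS, so no comparison has untreated cells. L-cDC2 (n = 3) were tdTomato-positive and M-cDC2 (n = 3) tdTomato-negative cells of mice carrying Il7r-Cre with Rosa26-lsl-tdTomato, in which cells that have ever expressed the Cre from Il7r, the interleukin 7 receptor gene of lymphoid progenitors, keep the tdTomato label. M-cDC2 are thus defined by the absence of a label. CLP-cDC2 (n = 3) and CDP-cDC2 (n = 3) were the CD45.2 offspring of wild-type common lymphoid progenitors (CLP) or common dendritic cell progenitors (CDP) injected into the marrow of B6.SJL (CD45.1) hosts, which keep their own dendritic cells. The comparison stated by the study is that of CLP-cDC2 with L-cDC2. The labels do not say whether replicates came from separate mice, and each p-value below reflects the spread among these samples alone, part of which may be technical.

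Core histones H2A, H2B, H3 and H4 form the spool around which DNA is wound, and the linker histone H1 binds where DNA enters and leaves it. The genes of the replication-dependent set lie in clusters, are transcribed mainly in S phase with the coactivator Npat, and have many copies that encode the same or nearly the same protein. Their mRNAs lack introns and end in a conserved stem-loop bound by Slbp in place of a poly(A) tail, and they are degraded when DNA synthesis stops. Replication-independent variants such as H3f3b and H2az1 are instead made from polyadenylated mRNAs throughout the cell cycle. The library kit primes reverse transcription on runs of A, so the levels below are those of the histone mRNAs that such priming captured, and the share captured was not measured.

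The stem-loop was present in the annotated transcript of 43 of the 64 genes (GENCODE M21, GRCm38). The windows below hold the 14 bases before it in lower case and the 16 bases of the stem-loop in capitals. They are those of genes on which the results turn, and H4c9 adds a further form of the loop. H3c6 has the same form as H3c3.
H2ac23: agaaaaaaaaaaaaGGCTCTTTTCAGAGCC
H2ac24: agaaaaaaaaaaaaGGCTCTTTTCAGAGCC
H2ac11: tgatcgccaacaaaGGCTCTTTTCAGAGCC
H2ac8: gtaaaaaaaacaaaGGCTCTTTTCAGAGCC
H2ac20: cacgaatccaaaaaGGCTCTTTTTAGAGCC
H2bc8: actcctaacccaaaGGCTCTTTTCAGAGCC
H2bu2: gcccccaacccaaaGGCTCTTTTCAGAGCC
H3c3: gctatttaaaaaaaGGCTCTTTTAAGAGCC
H3c6: acgtaaaccaaaacGGCTCTTTTAAGAGCC
H4c4: acccaaaaaccaaaGGCCCTTTTCAGGGCC
H4c9: caatgctacttaaaGGCCCTTTTTAGGGCC
The form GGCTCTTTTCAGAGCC was shared by 25 genes of the H1, H2A, H2B and H3 families, and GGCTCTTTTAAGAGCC by 5 H2B and H3 genes. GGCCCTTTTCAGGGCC was held by 6 genes, all of the H4 family. H2ac23 and H2ac24 have a run of 12 A that touches the stem-loop, the longest such run among the genes shown. Of the 43 annotated transcripts, 20 run on for more than 100 bases past the stem-loop, and 11 hold AATAAA, the poly(A) signal, after it.

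Promoters of the set carry the elements usual for it. RefSeq promoter windows of 300 bases, from 250 before to 50 after the start (GRCm38.p6), were matched for 58 of the 64 genes. A gene was counted if any of its windows held the motif, whereas the background counts single windows, so the percentages are not of like units. CCAAT, the NF-Y box, was found on either strand in 50 of 58 genes (86.21%) against 37.41% of all 32851 windows. It was found in each matched H1, H2A, H2B and H3 gene but only 3 of 11 of H4. TATAAA was found in 35 of 58 genes (60.34%) against 13.62% of all windows. ATTTGCAT, the octamer of H2B promoters, was found in 13 of 58 genes (22.41%) against 1.74% of all windows. All 13 were H2A (6 of 17) and H2B (7 of 15) genes. H2A and H2B genes can share a divergent promoter, and the windows of H2ac8 and H2bc8 overlapped by 279 bases. The 250 bases upstream of H2bc8 (GRCm38.p6, chr13:23571150-23571399, plus strand) and of H4c4 (chr13:23581318-23581567, plus strand) are shown because both genes are among those that differed between the groups. Capitals mark CCAAT and its reverse complement ATTGG, ATTTGCAT and TATAAA.
H2bc8: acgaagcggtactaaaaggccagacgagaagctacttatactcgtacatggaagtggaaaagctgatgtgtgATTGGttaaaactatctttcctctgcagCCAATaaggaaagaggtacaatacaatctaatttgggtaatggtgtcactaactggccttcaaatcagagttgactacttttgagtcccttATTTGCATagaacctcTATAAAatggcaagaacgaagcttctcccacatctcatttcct
H4c4: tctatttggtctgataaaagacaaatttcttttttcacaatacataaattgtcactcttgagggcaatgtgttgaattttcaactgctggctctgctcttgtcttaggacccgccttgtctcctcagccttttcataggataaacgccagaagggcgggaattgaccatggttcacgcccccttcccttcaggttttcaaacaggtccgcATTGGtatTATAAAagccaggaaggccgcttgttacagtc
The H2bc8 window holds CCAAT in both orientations, the octamer and TATAAA, whereas that of H4c4 holds ATTGG and TATAAA and no octamer.

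Assigned reads per library ran from 26543345 to 73732243, and 0.1005 to 0.3124% of them fell on the 64 genes. A pair of libraries stood apart from their groups over all genes, namely M-cDC2 replicate 3, with a score of -40.5 on principal component 3, and CDP-cDC2 replicate 3, with -50.6 on component 2. CLP-cDC2 replicate 2 scored 32 on component 2, against 12.2 and 10.8 in its group. The cDC2 genes Itgax, Sirpa and Flt3 were well above 1 FPKM in every group, with means of 60.97 to 118, 41.0 to 110 and 92.6 to 102 FPKM (fragments per kilobase of transcript and scaled to library size). Genes of other cells were present too and differed between the groups. Summed over the T cell list, L-cDC2 libraries held 37.6 to 51.4 FPKM and CLP-cDC2 8.08 to 16.6, against 1.84 to 5.55 in M- and CDP-cDC2, with Lck and Cd2 leading in L-cDC2 and Cd3e at 0 to 0.0659 FPKM by group mean. The neutrophil list summed to 45.4 FPKM in L-cDC2 replicate 2 and 15.2 in M-cDC2 replicate 2, against 0 to 1.70 in the other 10 libraries.

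H2A transcripts dominated the set. Per length, H2A genes made up 81.37 to 88.27% of the summed FPKM of the 64 genes in every library, H2B 3.3 to 6.68%, H4 2.62 to 4.94%, H1 2.98 to 5.28% and H3 1.3 to 2.18%. H2ac23 (ENSMUSG00000094248, chr13:21994635-21995114 as deposited, build not given) and H2ac24 (ENSMUSG00000094777, chr13:22017196-22017677) led with means of 851 and 850.4 FPKM over 12 libraries, together 49.28% of the summed mean level. Next came H2ac11 with 449, H2ac12 with 192 and H2ac8 with 167 FPKM. The 9 genes of at least 50 FPKM were all H2A, 27 genes lay between 5 and 50 FPKM and 28 below 5 FPKM, with a median of 7.30. The highest in the other families were H1f4 (48.5 FPKM) and H1f5 (42.1), H2bc8 (31.3) and H2bc4 (29.8), H4c18 (24.4) and H4c9 (23.3), and H3c4 (8.71) and H3c11 (8.53). Within each of these pairs the ranges over libraries overlapped, so their order is not resolved. H2ac1, a testis histone singled out after its values were seen, was the only gene not to pass the filter for testing (at least 1 FPKM in at least 3 libraries), with 0.148 FPKM and 1.13 to 6.46 reads per library.

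Single copies are hard to tell apart in this set. Reads recovered from the FPKM steps were fractional in all 12 libraries for 53 of 64 genes, so reads were shared between features. Over all genes with reads, 44.8 to 53.2% had whole reads in a library, so fractional reads are not particular to histone genes. H4c4, whose windows occur in no other transcript, was fractional in all 12 libraries as well. H2ac23 and H2ac24 hold an identical stretch of 452 bases and never differed by more than 0.232% of their FPKM, so they are described as a pair and are not independent. At least 50% of the 100-base windows of 36 transcripts occurred in no other transcript, among them H2ac20 (83.1%), H3c3 (71.6%), H2ac8 (69.3%), H2bc8 (55.1%) and H4c4 (100%). In H2ac23 and H2ac24 these shares were 7.3% and 7.8%. In addition, 16 H2A genes overlap a short predicted microRNA entry on the opposite strand. The entry inside H2ac23 stood at 1154 FPKM and that inside H2ac20 at 22.8 FPKM, and whether strand was used in counting is not given. How far, and in which direction, sharing changes the FPKM of single H2A genes was not tested.

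**Figure D1:**
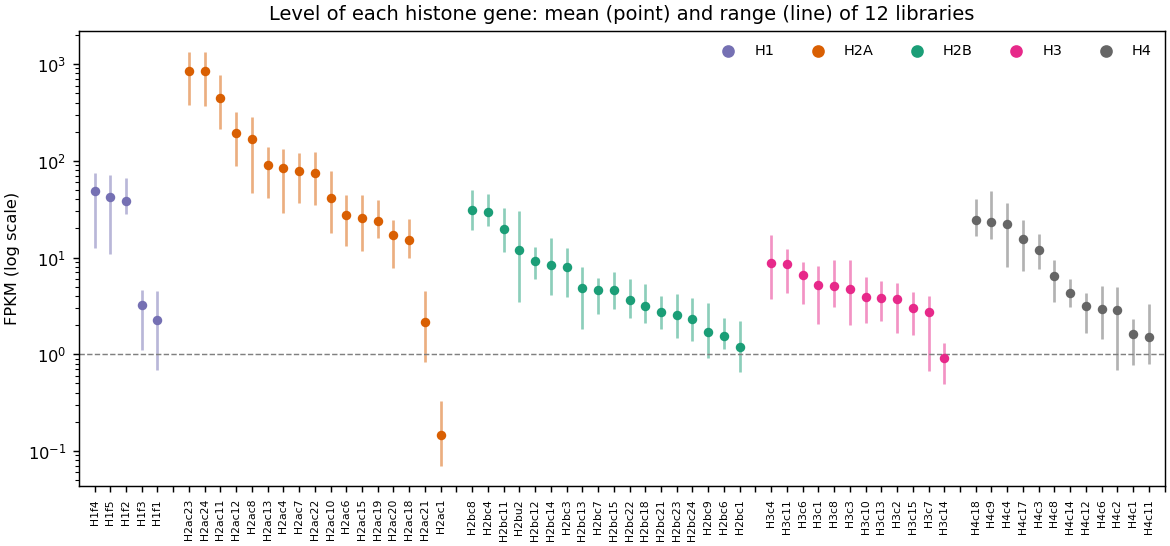
FPKM of each of the 64 genes on a log axis, by family. Points are means of 12 libraries, vertical lines run from the lowest to the highest library, and the dashed line is 1 FPKM. H2ac23 and H2ac24 lie at 851 and 850.4 FPKM, while no H2B, H3 or H4 gene reaches 50 FPKM in the mean.

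The histone genes were higher in cDC2 from CLPs than in cDC2 from CDPs. Of 63 genes tested, 34 were higher and 0 lower in CLP-cDC2 (limma, Benjamini-Hochberg adjusted p under 0.05), where 7.02% and 6.12% of all 14538 genes tested were called higher and lower. The median log2 difference of the 63 genes was 0.76, against -0.01 for all genes, and 62 of 63 differences were positive. The exception was H4c14, named after its values were seen, at -0.06. In 42 genes all CLP-cDC2 libraries lay above all CDP-cDC2 libraries and in 0 below, against 16.7% and 13% of all genes. Summed over the 64 genes, CLP-cDC2 replicates stood at 4771, 5487 and 4850 FPKM and CDP-cDC2 replicates at 2478, 1689 and 1786, a ratio of the means of 2.54. All families took part, with 12 of 16 H2A genes tested called, 10 of 18 H2B, 4 of 12 H3, 4 of 12 H4 and 4 of 5 H1. Family medians were 1.29 for H2A, 0.66 for H2B, 0.72 for H3, 0.66 for H4 and 0.88 for H1 on the log2 scale of FPKM + 1. That scale understates differences of low genes, and median levels were 75.3 FPKM in H2A but 4.58, 4.34 and 5.41 in H2B, H3 and H4. Ratios of mean summed FPKM, with nothing added, were 2.67 for H2A, 1.84 for H2B, 1.90 for H3, 1.83 for H4 and 2.03 for H1. In RNA from pooled cells a larger share of cells in S phase and more histone RNA per cell cannot be told apart. The count of 34 fell to 19 when either CDP-cDC2 replicate 3 or CLP-cDC2 replicate 2 was left out, to 22 when CDP-cDC2 replicate 2 or CLP-cDC2 replicate 1 was, and to 17 without the filter on low values, with 44519 genes tested. Of the 34 genes, 17 were called in each of the 25 settings tried, and none turned negative.

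**Figure D2:**
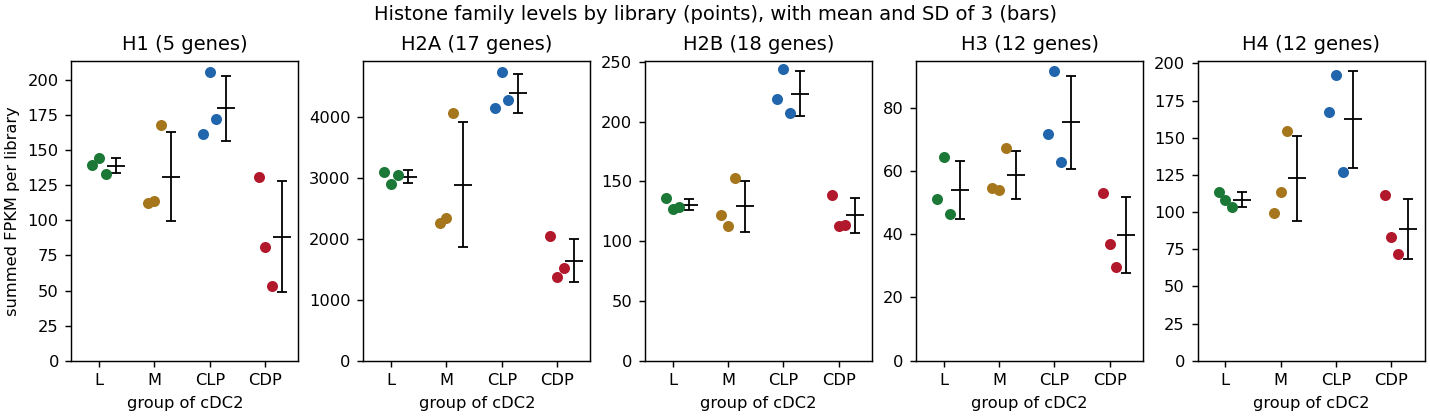
Summed FPKM of each histone family by library (points) for L-, M-, CLP- and CDP-cDC2, with the mean and SD of 3 libraries beside them. In H2A the CLP-cDC2 libraries lie at 4152 to 4754 and the CDP-cDC2 libraries at 1374 to 2044, with no overlap.

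H2A, which pairs with H2B in the nucleosome, had the highest median difference of the families. H2ac23 stood at 1217, 1334 and 1289 FPKM in CLP-cDC2 and at 563.8, 373 and 465 in CDP-cDC2. The log2 difference was 1.47 ± 0.19 (SE, limma adjusted p = 0.000641). L-cDC2 lay between them at 914, 769.7 and 877 FPKM, and so did M-cDC2 at 658, 663 and 1092. H2ac24 gave the same difference, as its reads are nearly those of H2ac23. H2ac8 (chr13:23754691-23755394 as deposited) stood at 217, 286 and 239 FPKM in CLP-cDC2 and at 96.3, 85.9 and 46.4 in CDP-cDC2, the largest difference among the 63 genes at 1.74 ± 0.24 (SE, limma adjusted p = 0.000955). H2ac20 (chr3:96127677-96128196), from the smaller cluster on chromosome 3, stood at 19.1, 21.6 and 24.3 FPKM against 10.002, 7.79 and 8.88. Its difference of 1.195 ± 0.14 (SE) had the smallest adjusted p of the set, 0.000281 by limma. None of these genes had overlapping CLP-cDC2 and CDP-cDC2 libraries. H2ac4 (1.54), H2ac12 (1.42), H2ac11 (1.41), H2ac13 (1.33), H2ac7 (1.31), H2ac22 (1.27), H2ac6 (1.22) and H2ac10 (1.12) rose as well in log2 units.

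Of the H2B genes 10 of 18 rose. H2bc8 (ENSMUSG00000058385, chr13:23755570-23756187 as deposited), the divergent neighbour of H2ac8, stood at 37.6, 49.8 and 48.2 FPKM in CLP-cDC2 and at 21.2, 19.1 and 23.2 in CDP-cDC2. The log2 difference was 1.05 ± 0.13 (SE, limma adjusted p = 0.000497). Its L-cDC2 libraries (31.2, 26.5 and 30.002 FPKM) and M-cDC2 libraries (28.3, 30.6 and 29.9) lay between, close together. H2bc4 stood at 43.4, 45.9 and 40.5 FPKM against 28.2, 26.04 and 25.55, a difference of 0.68. H2bc14 (1.22), H2bc11 (1.01), H2bc3 (0.96), H2bc9 (0.75), H2bc12 (0.71), H2bc15 (0.67), H2bc23 (0.60) and H2bc24 (0.57) were called too. H2bc15, H2bc23 and H2bc24 had adjusted p of 0.0373 to 0.0494 and lost their calls in 12 to 17 of the settings tried.

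H3 and H4, which form the core tetramer, had fewer called genes at lower levels. H3c3 (ENSMUSG00000069310, chr13:23928956-23929585) stood at 9.43, 8.83 and 8.74 FPKM in CLP-cDC2 and at 3.66, 2.94 and 2.02 in CDP-cDC2. The log2 difference was 1.39 ± 0.18 (SE, limma adjusted p = 0.000641). In L-cDC2 it stood at 3.97, 3.92 and 2.697 FPKM and in M-cDC2 at 3.66, 3.11 and 3.84, so CLP-cDC2 were above every other library. H3c2 (0.91), H3c11 (0.88) and H3c8 (0.87) were also called, while H3c4, at 10.2, 17.1 and 7.14 against 7.90, 5.21 and 3.76 FPKM, overlapped and was not called (limma adjusted p = 0.0608). H4c4 (ENSMUSG00000061482, chr13:23765581-23766718) stood at 33.2, 36.7 and 26.4 FPKM in CLP-cDC2 and at 14.4, 12.3 and 7.93 in CDP-cDC2, a difference of 1.42 ± 0.24 (SE, limma adjusted p = 0.00308). H4c8 (0.88), H4c9 (0.84) and H4c18 (0.75) were the other H4 genes called.

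Of the linker histone genes 4 of 5 rose. H1f5 (ENSMUSG00000058773, chr13:21964053-21964795), whose transcript windows occur nowhere else, stood at 54.7, 55.0 and 71.0 FPKM in CLP-cDC2 and at 35.3, 18.8 and 10.99 in CDP-cDC2. The log2 difference was 1.57 ± 0.30 (SE, limma adjusted p = 0.00517). H1f4 stood at 65.4, 75.1 and 57.8 FPKM against 48.5, 26.1 and 12.5, differing by 1.35 ± 0.36 (SE, limma adjusted p = 0.0271). In both genes the CDP-cDC2 libraries spread more widely than those of any other group. H1f1 (0.88) and H1f3 (0.79) were called at levels under 5 FPKM, and H1f3 lost its call in 18 of 24 settings. H1f2, at 34.6, 66.7 and 37.9 against 42.5, 33.04 and 27.997 FPKM, overlapped.

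**Figure D3:**
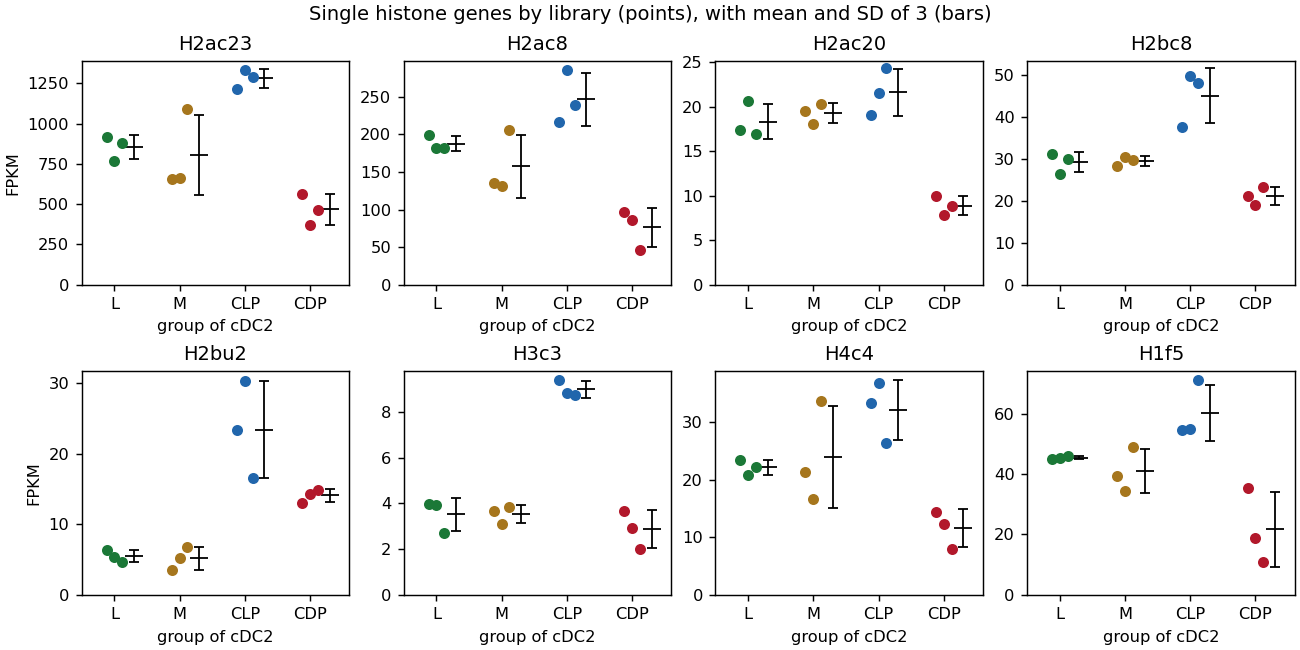
FPKM of 8 histone genes by library (points) for L-, M-, CLP- and CDP-cDC2, with the mean and SD of 3 libraries. In H3c3 the CLP-cDC2 libraries at 8.74 to 9.43 FPKM lie above all others, in H2ac20 the CDP-cDC2 libraries at 7.79 to 10.002 lie below all others, and in H2bu2 both transfer groups lie above L- and M-cDC2.

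L-cDC2 and M-cDC2, the fate-mapped counterparts, showed no histone gene past the threshold. Of 63 genes, 0 were called higher and 0 lower by limma, where 1.29% and 0.44% of all genes were called, and 0 had an unadjusted p under 0.05, against 8.26% of all genes. With array weights, which weigh each library by its spread, 1 gene was called higher. Differences ran from -0.32 (H4c8) to 0.28 (H2ac8) with a median of -0.01 on the log2 scale. No gene had all L-cDC2 libraries above all M-cDC2 libraries and only H3c6 had them below (5.73, 6.47 and 6.77 against 7.66, 7.09 and 7.43 FPKM), against 12.7% and 6.67% of all genes. The families leaned in opposite directions, with 12 of 16 H2A differences positive and 11 of 12 H4 differences negative, none of them called. M-cDC2 replicate 3 was far above the other M-cDC2 libraries, at a summed level of 4624 FPKM against 2653 and 2736, and had the highest value of its group in 55 of 64 genes. L-cDC2 libraries lay between them at 3546, 3348 and 3473 FPKM. Markers of other cell types did move in this comparison. Of the B cell list 6 of 9 genes were called higher in L-cDC2 by limma (sums of 1002 to 1569 against 87.6 to 106 FPKM), with the antigen receptor subunit Cd79a at 53.5 against 0.34 FPKM by group mean. Of the plasma cell list 6 of 7 were higher (853 to 1087 against 441 to 452 FPKM), as were 7 of 10 NK cell and ILC genes (724 to 866 against 362 to 399 FPKM) and 5 of 6 T cell genes, and none of these 4 lists had a gene lower. Of the cDC1 list 5 of 11 were lower, and of the monocyte and macrophage list 3 of 9. Within the NK cell and ILC sums, Ccl5 alone stood at 453, 440 and 484 FPKM in L-cDC2 and at 261, 272 and 334 in M-cDC2. Whether the marker transcripts came from other cells or from the cDC2, and their part in the histone values of L-cDC2, was not tested.

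**Figure D4:**
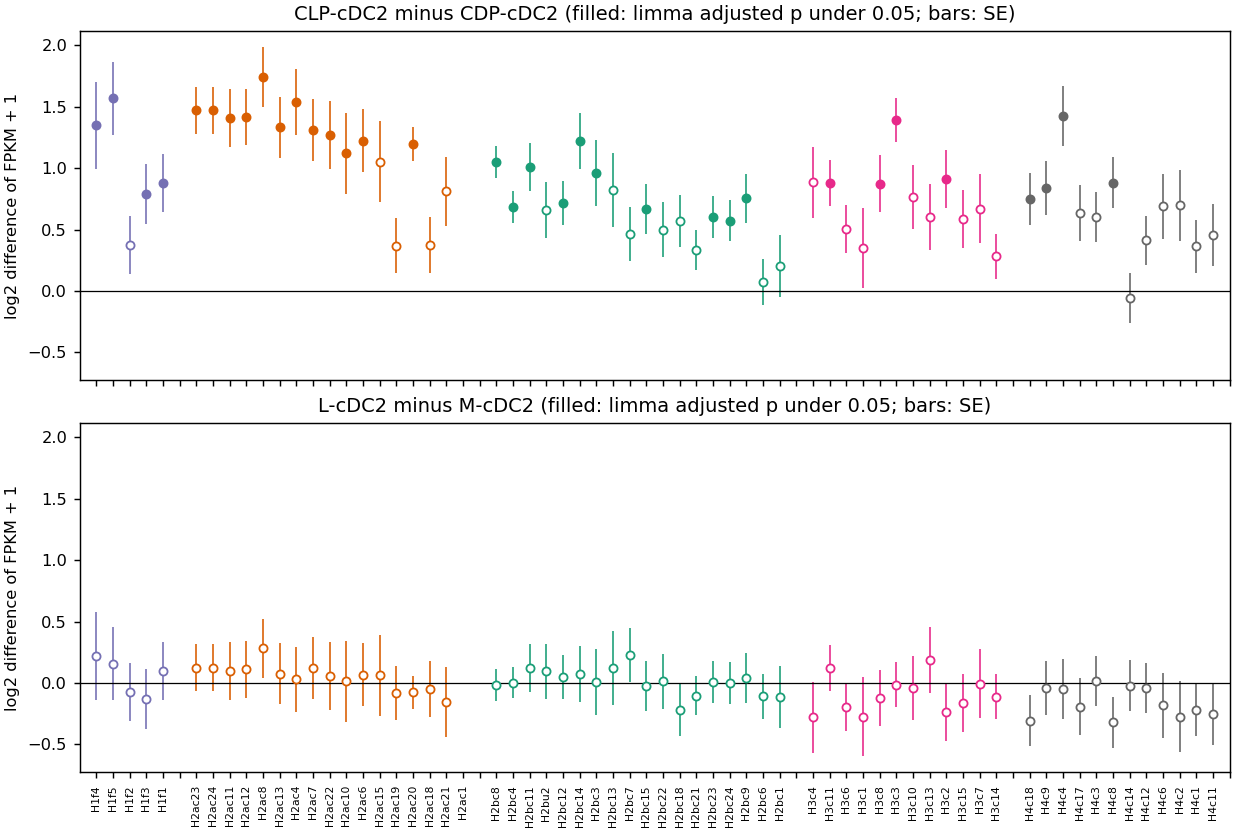
Log2 difference of FPKM + 1 for each gene tested, with its SE, in CLP-cDC2 minus CDP-cDC2 (top) and L-cDC2 minus M-cDC2 (bottom). Filled points passed an adjusted p of 0.05, which 34 genes did at the top and 0 at the bottom.

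Whether the CLP-to-CDP gap exceeded the L-to-M gap was tested directly. The difference between the 2 contrasts was called higher for 12 of 63 genes and lower for 0, against 2.38% and 3.61% of all genes, with a median of 0.83. Of the 12 genes 7 were H2A, namely H2ac4 (1.51), H2ac8 (1.46), H2ac23 (1.35), H2ac24 (1.35), H2ac11 (1.31), H2ac12 (1.30) and H2ac20 (1.27). H2ac4, H2ac11 and H2ac12 each lost the call in 13 of 24 settings. Only 47.6%, 23.8% and 10.5% of their windows occur in no other transcript. They may share reads, as H2ac23 and H2ac24 do, so the 7 are not a count of independent genes. The others were H4c4 (1.47), H4c8 (1.202), H3c3 (1.40), H2bc8 (1.07) and H2bc4 (0.68). Calls were also lost in 18 of 24 settings for H2bc4, 11 for H4c8, 9 for H4c4, 7 for H2ac8 and 1 each for H2ac23 and H2ac24. H2ac20 had the smallest adjusted p (0.00373 by limma), followed by H2bc8 (0.00738) and H3c3 (0.00982), and these 3 were called in each of the 24 settings tried. The count fell to 5 without L-cDC2 replicate 2 or 3 or CLP-cDC2 replicate 2, to 6 without L-cDC2 replicate 1, CLP-cDC2 replicate 1 or CDP-cDC2 replicate 3, and to 7 without M-cDC2 replicate 3 or CDP-cDC2 replicate 2. It rose to 26 without CDP-cDC2 replicate 1. In the same test 3 of 9 B cell, 3 of 7 plasma cell, 7 of 10 NK cell and ILC and 4 of 6 T cell genes were lower and none higher, 8 of 16 cDC2 genes were lower and 1 higher, and 7 of 11 cDC1 genes were higher.

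Compared with L-cDC2, the cells stated to be their counterpart, CLP-cDC2 had 7 histone genes higher and 0 lower by limma, against 4.29% and 6.32% of all genes. The median difference was 0.42 on the log2 scale, 59 of 63 were positive, and in 36 genes all CLP-cDC2 libraries were above all L-cDC2 libraries and in 0 below, against 17.8% and 17.9% of all genes. The called genes were H2bu2 (1.88), H3c3 (1.16), H2bc14 (1.04), H4c18 (0.97), H4c9 (0.91), H2bc4 (0.79) and H2bc8 (0.60). No H2A gene was called, although H2ac23 libraries did not overlap (0.59, limma adjusted p = 0.068). The count was 4 without L-cDC2 replicate 2 or CLP-cDC2 replicate 1 and 12 without M-cDC2 replicate 3, whose group shares the estimate of spread. It was 21 with only both groups in the fit. Markers of lymphoid cells were lower in CLP-cDC2 in the same comparison, namely 5 of 9 B cell genes (sums of 125 to 534 against 1002 to 1569 FPKM), 4 of 7 plasma cell genes, 8 of 10 NK cell and ILC genes (188 to 281 against 724 to 866 FPKM) and 5 of 6 T cell genes. Of the 4 lists 1 gene, in the NK cell and ILC list, was higher, while 5 of 11 cDC1 genes were higher and 7 of 16 cDC2 genes lower. Their part in the histone differences was not tested.

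CDP-cDC2 against M-cDC2 leaned the other way. Of 63 genes, 1 was called higher and 2 lower by limma, against 1.62% and 0.956% of all genes, and 57 differences were negative with a median of -0.45. All CDP-cDC2 libraries lay below all M-cDC2 libraries in 14 genes and above in 1, against 9.94% and 14.5% of all genes. H2ac20 was lower by -1.04 (M-cDC2 19.5, 18.1 and 20.4 FPKM, limma adjusted p = 0.0018). H2ac8 was lower by -1.07, at 135, 131 and 206 FPKM in M-cDC2 (limma adjusted p = 0.0399), a call lost in 13 of 25 settings. The count of 2 became 1 on leaving out any of L-cDC2 replicates 1, 2 and 3, M-cDC2 replicates 1, 2 and 3, CLP-cDC2 replicates 1 and 3 or CDP-cDC2 replicate 3, and 7 without CDP-cDC2 replicate 1. Without M-cDC2 replicate 3 the median was -0.20, and without CDP-cDC2 replicate 3 as well it was -0.09. Among the cell type markers 6 of 11 cDC1 genes and 1 of 9 B cell genes were lower in CDP-cDC2, and no gene of the other lists was called.

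H2bu2, an H2B gene on chromosome 11 (ENSMUSG00000056895, chr11:58839746-58840359 as deposited), was the gene called higher in CDP-cDC2 and had a pattern unlike the rest. It stood at 23.3, 30.4 and 16.6 FPKM in CLP-cDC2 and 13.1, 14.3 and 14.9 in CDP-cDC2, against 6.35, 5.37 and 4.70 in L-cDC2 and 3.51, 5.26 and 6.75 in M-cDC2. Both transfer groups were thus above both groups of the reporter line in every library. The log2 differences were 1.88 ± 0.22 (SE, limma adjusted p = 0.000225) for CLP-cDC2 minus L-cDC2 and 1.32 ± 0.22 (SE, limma adjusted p = 0.0109) for CDP-cDC2 minus M-cDC2. The latter call was lost without M-cDC2 replicate 2. Transfer, genotype and host differ together between these groups and cannot be told apart. Between CLP- and CDP-cDC2 the difference of 0.66 was not called (limma adjusted p = 0.0728), although the libraries did not overlap.

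Genes of the processes that go with histone synthesis were read from lists. In CLP-cDC2 minus CDP-cDC2, 23 of 41 DNA replication genes were called higher and 0 lower, with a median of 0.54 on the log2 scale. Over all genes 7.02% were called higher and 6.12% lower in that comparison. Dut, which keeps uracil out of DNA, rose by 0.97 from 59.0, 46.8 and 43.5 to 97.7, 99.9 and 96.1 FPKM, and Tyms, which makes thymidylate, by 0.78. Rrm2, a ribonucleotide reductase subunit, rose by 0.68, the clamp Pcna by 0.66 and the helicase subunit Mcm6 by 0.56. Of the G2 and mitosis list 16 of 25 were called higher and 0 lower with a median of 0.69, among them the mitotic kinase Cdk1 (1.02), Cdca8 of the chromosomal passenger complex (0.93) and Cdc20 of the anaphase-promoting complex (0.90). Mki67 (0.42) and Top2a (0.65) were not called. The replication-dependent histones had a median of 0.76 beside 0.54 and 0.69 for these lists. The histone median was 0.48 with a pseudocount of 5 and 1.01 with voom on recovered reads. Medians of the other lists are not given under those settings, so the order of the lists is not resolved. The difference between the contrasts was called higher for 10 of 41 replication genes, including Dut and Tyms, against 2.38% of all genes. It was called higher for 4 of 25 mitosis genes, including Cdk1, Cdca8 and Cdc20.

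Variant histones and histone chaperones followed in part. Of 10 replication-independent histone genes tested 6 rose and 0 fell, among them the centromere histone Cenpa (0.86), H2ax, the variant phosphorylated at DNA breaks (0.70), H2az1 (0.63) and the H3.3 gene H3f3a (0.54), a call lost in 17 of 25 settings. The second H3.3 gene H3f3b (0.27) and the linker H1f0 (0.33) were not called. Of 24 chaperone genes 8 rose, led by Dnajc9, an H3-H4 co-chaperone (0.77), and Asf1b (0.65), which hands H3-H4 to replicating DNA, with Nasp at 0.68. Ubn1, of the HIRA complex that deposits H3.3 outside replication, was the only one to fall, by 0.75. Of 20 genes for histone mRNA processing and decay 1 rose, a share below the 7.02% of all genes called higher. That gene was Slbp, at 41.0, 53.0 and 43.0 FPKM in CLP-cDC2 against 28.8, 32.2 and 25.5 in CDP-cDC2 (0.64 ± 0.14, SE, limma adjusted p = 0.0114). Npat (0.06) and Casp8ap2 (0.11), which act at the histone locus body, were not called. In L-cDC2 minus M-cDC2 none of these 5 lists had a gene called by limma. All 25 G2 and mitosis genes were nonetheless positive there, with a median of 0.33 and 10 at an unadjusted p under 0.05.

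**Figure D5:**
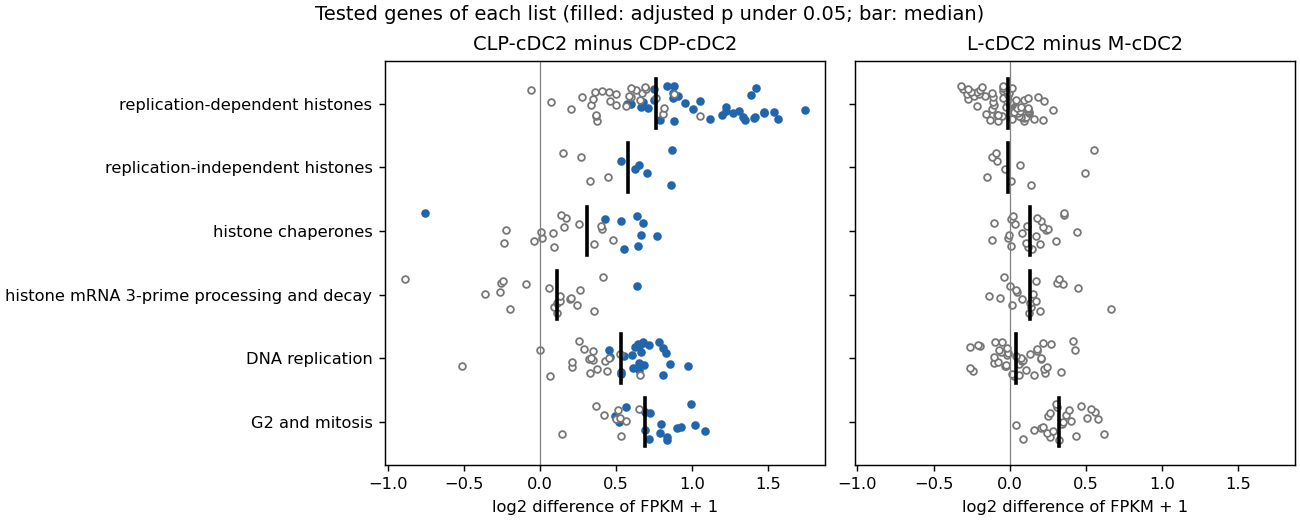
Log2 difference of FPKM + 1 for each tested gene of 6 lists in CLP-cDC2 minus CDP-cDC2 (left) and L-cDC2 minus M-cDC2 (right). Filled points passed an adjusted p of 0.05 and black bars are medians, which on the left run from 0.11 for histone mRNA processing to 0.76 for the replication-dependent histones.

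Markers of cell types moved with the comparison of the transferred cells as well, where 7.02% of all genes were called higher and 6.12% lower. In CLP-cDC2 minus CDP-cDC2, 10 of 16 cDC2 genes fell and 1 rose, with sums of 7138 to 8828 FPKM in CLP-cDC2 and 11179 to 12104 in CDP-cDC2. Of the monocyte and macrophage list 5 of 9 fell and 0 rose, with sums of 71.8 to 199 against 513 to 681 FPKM. Of the cDC1 list 6 of 11 rose (246 to 300.4 against 184 to 225 FPKM), with Xcr1 and Clec9a at 3.82 and 3.697 FPKM in CLP-cDC2. Of the B cell list 5 of 9 rose, with sums of 125 to 534 against 97.5 to 125 FPKM. Of the T cell list 2 of 6 rose, of the plasmacytoid list 2 of 8 rose and 1 fell, 1 NK cell and ILC gene of 10 rose while 2 fell, and of the plasma cell list 0 of 7 were called. Of the erythroid list 1 of 5 rose, and its sum reached 496 FPKM in CLP-cDC2 replicate 2 and 504 in L-cDC2 replicate 2 against 26.8 to 205 in the other 10 libraries. Within CLP-cDC2, replicate 2 had the highest B cell sum (534 against 131 and 125 FPKM) and monocyte and macrophage sum (199 against 71.8 and 86.9). Its sums were not the highest of its group in the T cell, cDC1 and plasmacytoid lists. The same library had the highest value of its group in 47 of 64 histone genes. Whether these marker transcripts came from other cells or from the cDC2, and their part in the histone differences, was not tested.

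The gap between CLP- and CDP-cDC2 was seen across kinds of annotated transcript. It was called in 23 of 43 genes with the stem-loop in the annotated transcript (median 0.75) and in 11 of 20 tested without it (0.79). Several annotations without it are short, such as those of H2ac13 (393 bases), H2bc13 (381) and H4c12 (312). A stem-loop beyond the annotated end could not be read, so this split does not compare mRNAs with and without a stem-loop. Genes whose annotation ends within 100 bases after the stem-loop gave 15 of 23 (0.88), and those that run on further gave 8 of 20 (0.66). Of 7 genes with a run of at least 8 A, H2ac23 and H2ac24 among them, 6 were called, with a median of 1.22, against 28 of 56 (0.75) without. Among the genes with at least 50% of windows found in no other transcript, 18 of 35 were called with a median of 0.79, beside 16 of 28 with 0.76 among the others. CCAAT was found in 29 of the 32 called genes with a promoter window and in 20 of the 25 tested and not called. The TATA box letters were found in 20 and 14 of them, and the octamer in 9 and 3. These counts describe the genes and were not tested.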

How the data were processed

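Libraries of 12 samples were prepared with the SMART-Seq HT and Nextera XT kits (labels' protocols). The authors deposited FPKM per gene. Per the submitters' processing notes the tools were STAR 2.7.9a, featureCounts 2.0.1, cutadapt 3.7, DESeq2 1.20.0, Trim Galore 0.6.7 and Trimmomatic 0.39. The notes list GRCh38 and GRCm38, and no roles. Deposited coordinates are printed as deposited, since no build is named for them.

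Reads were recovered from FPKM steps of 0.01 read (tolerance 0.02 steps). They were not all whole, so a count model was not the main test, and voom on them is an alternative. Values were analysed as log2(FPKM + 1), which understates differences of low genes. limma 3.58.1 (trend, two-sided, R 4.3.3) fitted 14538 genes with at least 1 FPKM in at least 3 libraries over all 12 libraries and 4 group means, adjusted by Benjamini-Hochberg over all genes, called under 0.05. The fit was also run on simulated counts with a fixed dispersion, for each contrast except the difference between the lineage contrasts. Its outcome is not given here, so it is no evidence for the calls. Stem-loops were searched in GENCODE M21 transcripts, whose length equalled the deposited length in 61 of 64 genes, and motifs in RefSeq promoters. Python 3.11.15 and matplotlib 3.10.9 were used.

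The histone genes and lists were chosen with earlier results of these data known. Named are the genes called in any contrast, the top 2 per family by mean FPKM, the 3 largest differences without overlap per lineage contrast, up to 2 called genes per list and direction, and 16 genes chosen by name. Cell type markers and single exceptions are named beside them. Alternatives were other pseudocounts, filters, scalings and fits, array weights, a replicate block and libraries left out. No libraries of a group held identical values.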

Additional observations from a re-analysis of the deposited data

Results flagged for a closer look

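For 12 histone genes, and for 9 of the genes named from the replication, mitosis, variant histone and chaperone lists, the CLP-to-CDP difference departed from the L-to-M difference in a test of the difference itself (limma, adjusted p under 0.05 over all genes). The departures on the log2 scale were 1.27 for H2ac20, 1.07 for H2bc8, 1.40 for H3c3, 1.35 for H2ac23, 1.35 for H2ac24, 1.46 for H2ac8, 1.47 for H4c4, 1.202 for H4c8, 1.51 for H2ac4, 1.30 for H2ac12, 1.31 for H2ac11 and 0.68 for H2bc4. Among DNA replication genes they were 1.003 for Dut and 0.83 for Tyms, and among mitosis genes 0.98 for Cdk1, 0.69 for Cdc20 and 0.71 for Cdca8. H2az1 gave 0.66, Cenpa 0.72 and the chaperone Dnajc9 0.59. Ubn1 gave -1.11, with 6.52, 6.71 and 8.15 FPKM in CDP-cDC2 and 2.27 to 5.18 FPKM in the other 9 libraries. Only in Ubn1 was the departure negative among these 21 genes. Of the 9 genes from the lists, only Dut kept its call in all 24 settings tried. The call was lost in 16 settings for Dnajc9, 13 for Cenpa, 9 each for Ubn1 and Cdc20, and 6 each for H2az1 and Cdca8. It was lost in 4 for Cdk1 and 1 for Tyms. Losses among the histone genes are given with the results above.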

How the results depend on the processing

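Of 372 recomputed counts and medians, 316 stayed within 1.5 times the reported count or within 0.228 of the reported median. That bound is the SD of library medians within groups, not the spread of a difference. The 316 include counts reported as 0 that stayed 0, such as histone genes lower in CLP-cDC2 than in CDP-cDC2. The share of 316 thus says little about the counts above 0, whose changes are given below. In CLP-cDC2 minus CDP-cDC2 the count of 34 higher genes was 17 without a filter and 19 to 40 with a library left out. The median of 0.76 was 0.48 with a pseudocount of 5 and 1.01 with voom on recovered reads. For the difference between the lineage contrasts the count of 12 was 3 without a filter, 25 with array weights, 21 among protein-coding genes, 7 when CDP-cDC2 replicate 3 and M-cDC2 replicate 3 were both left out, and 5 to 26 with a library left out. Its median of 0.83 was 0.49 with a pseudocount of 5, 1.06 with a filter of 5 FPKM, 1.10 with voom and 0.50 without those 2 libraries. In CLP-cDC2 minus L-cDC2 the count of 7 was 4 without a filter, 21 with only both groups, 13 with array weights, 15 without those 2 libraries and 4 to 12 with a library left out. In CDP-cDC2 minus M-cDC2 the 1 higher gene was lost (0) without a filter and with only both groups, and was 0 to 1 with a library left out. The 2 lower genes were 1 without a filter, with only both groups or without those 2 libraries, 7 with a filter of 5 FPKM, 17 with array weights, 11 among protein-coding genes, 5 with voom and 1 to 7 with a library left out. The median of -0.45 was -0.0903 without those 2 libraries and -0.58 to -0.20 with a library left out. In L-cDC2 minus M-cDC2 array weights called 1 gene higher. Fewer genes were tested under the higher filter and among protein-coding genes, more without a filter, and the cause of the other changes was not tested. In CLP-cDC2 minus CDP-cDC2, 2 uncalled genes changed sign, namely Npat, from -0.0029 without CDP-cDC2 replicate 2 to 0.14 without CLP-cDC2 replicate 2, and Casp8ap2, from -0.0372 without CDP-cDC2 replicate 3 (alone or with M-cDC2 replicate 3) to 0.216 without CLP-cDC2 replicate 3.

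The labels give the groups the same replicate numbers, but same-numbered libraries did not deviate together (correlations of -0.435 to 0.282, and 1 pair of 12 correlated best with its own number). With the replicate block, CLP-cDC2 minus CDP-cDC2 had 27 higher genes, the difference between the contrasts 6 higher, and CDP-cDC2 minus M-cDC2 1 lower. Genes such as H2ac1 with 1.13 to 6.46 reads are beyond the depth.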

Other observations

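Histone rows typed as pseudogenes lay outside the rule and were read after their values were seen, with no test. H2ac14 stood at 108, 125 and 117 FPKM in CLP-cDC2 and at 62.8, 40.4 and 37.7 in CDP-cDC2, with 84.8 ± 8.61 (SD, n = 3) in L-cDC2 and 86.5 ± 41.6 in M-cDC2. H2ac5-ps stood at 47.5, 55.7 and 53.1 FPKM in CLP-cDC2 and at 37.7, 25.1 and 21.1 in CDP-cDC2. In both, CLP-cDC2 libraries lay above all CDP-cDC2 libraries, as in most H2A genes. Whether these rows share reads with the H2A genes was not tested, so they are not counted as independent of them.

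H2bu1-ps stood at 5.72 ± 0.47 FPKM (SD, n = 3) in CLP-cDC2 and 5.86 ± 1.21 in CDP-cDC2, against 1.49 ± 0.58 in L-cDC2 and 2.89 ± 0.71 in M-cDC2. Every library of both transfer groups was above every library of the reporter line, as for H2bu2.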
